A study of Mus musculus with 5 samples.

Results

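The genes that receive, relay and damp the IL-13 signal were read in the esophagus of mice carrying an IL-13 transgene. The 10 members are the cytokine gene Il13, the receptor chain genes Il4ra, Il13ra1, Il13ra2 and Il2rg, the kinase genes Jak1 and Tyk2, the transcription factor gene Stat6 and the feedback inhibitor genes Socs1 and Socs3. They were chosen by gene symbol. Of the 10, 9 had at least 1 probe set on the Affymetrix Mouse Genome 430 2.0 array that the platform annotation pairs with that symbol alone, and these 9 genes had 21 of the 45037 probe sets tested. The annotation used here names no probe set for Il2rg, the common gamma chain, so no value is given for it. The Dox group (n = 3 arrays) came from CC10-rtta/teton-IL-13 transgenic mice on the FVB/N strain, 3 to 4 months of age, whose diet held doxycycline. The NoDox group (n = 2 arrays) came from mice of the same genotype, background and age on regular diet, so both groups carry the transgene. In this line the CC10 promoter, active in the club cells of the airway, drives a transactivator that turns on the IL-13 transgene in the presence of doxycycline. Nothing in the labels ties an array to a mouse of its own, and p-values then speak of the spread among the 5 arrays only, which may be technical. Because non-transgenic mice on doxycycline were not part of the comparison, effects of the drug itself and of the induced IL-13 cannot be told apart.

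IL-13 binds the receptor chain IL-13Rα1, which then pairs with IL-4Rα, the chain shared with the IL-4 receptor. JAK1 on IL-4Rα and TYK2 on IL-13Rα1 phosphorylate the receptor and STAT6, which moves to the nucleus and turns on its target genes. IL-13Rα2 binds IL-13 tightly, has a short cytoplasmic tail and is known mainly as a decoy, and SOCS1 and SOCS3 are inhibitors that many cytokines induce and that block Janus kinases. In the esophagus this pathway is best known from eosinophilic esophagitis.

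Each value is a ratio, the signal of a probe set over its NoDox mean, so that mean is 1 for every member probe set. Il4ra, Il13ra2 and Socs3 rose in Dox, with 5 of the 21 member probe sets past the threshold and 0 lower past it. The threshold was an adjusted p under 0.05 in limma with Benjamini-Hochberg adjustment over all 45037 probe sets. Over all probe sets, 0.54% were higher past it in Dox, 0.382% lower and 0.921% either, which is 243 higher and 172 lower (273 and 113 with each array centred on its median). The members were chosen with earlier results of these data known, so their count is a description. The limma fit gave 8 of the 21 an unadjusted p under 0.05, and 6268 of all 45037 probe sets. The median log2 fold change over the member probe sets was 0.41, against -0.08 over all probe sets. In 10 member probe sets all 3 Dox arrays lay above both NoDox arrays, and in 0 they lay below. Over all probe sets the shares were 12.4% and 19.7%. The 16 probe sets not past the threshold had adjusted p from 0.0975 to 0.909.

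**Figure D1:**
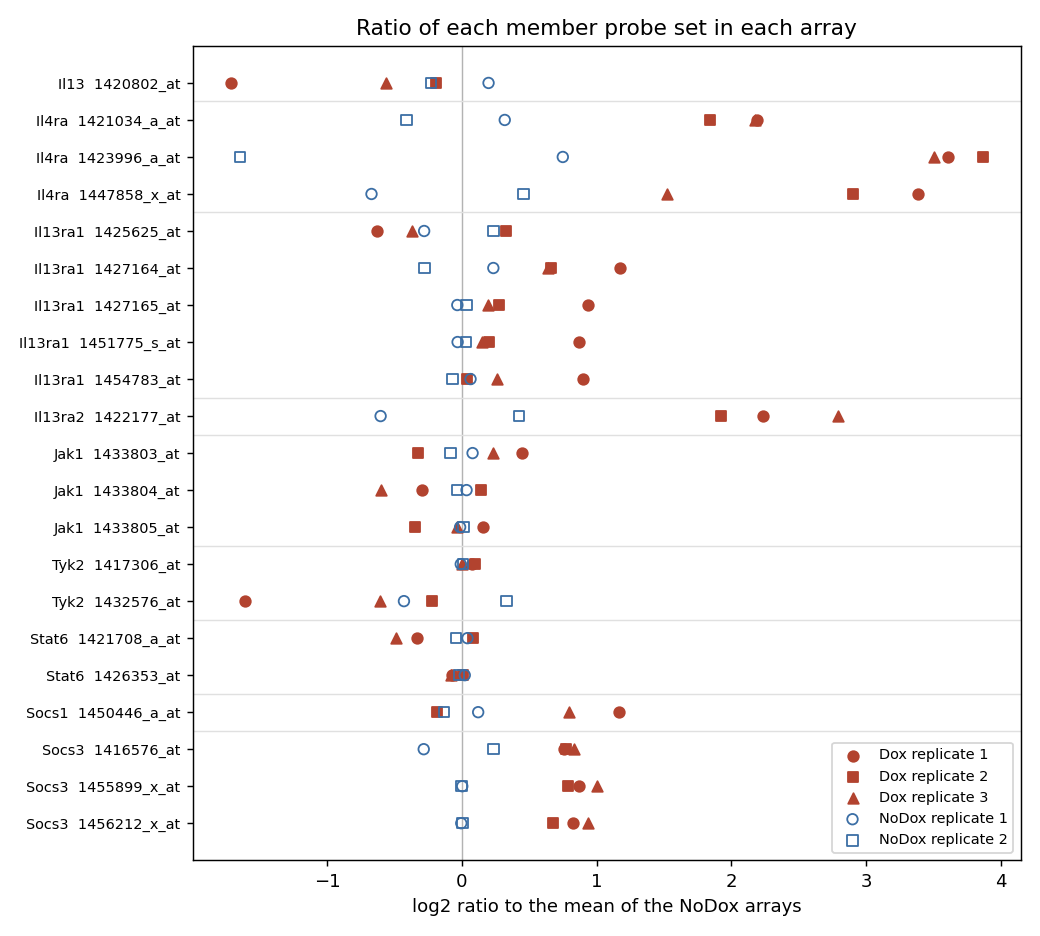
Log2 of the ratio to the NoDox mean (horizontal axis) for each of the 21 member probe sets (rows) in the 3 Dox arrays (filled) and the 2 NoDox arrays (open). The Dox arrays lie above both NoDox arrays in all 3 Il4ra rows, in the Il13ra2 row, in all 3 Socs3 rows and in 3 of 5 Il13ra1 rows. They mix with the NoDox arrays in the Stat6, Jak1 and Socs1 rows.

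The sequences before the annotated starts of the 3 genes that rose are shown because these genes share the rise, and that of Il13ra1, the signalling partner chain with 0 of 5 probe sets past the threshold, is set beside them. They are the 250 bases before the gene start, 5′ to 3′ on the gene's strand, from RefSeq on GRCm38.p6. Their positions are chr7:125552021-125552270 on the plus strand for Il4ra, chrX:147429193-147429442 on the minus strand for Il13ra2, chr11:117969367-117969616 on the minus strand for Socs3, and chrX:36111858-36112107 on the plus strand for Il13ra1. Capitals mark matches to TTCNNNNGAA, the spacing STAT6 is known to prefer, to TTCNNNGAA, the spacing of most STATs, and to TATAAA, on either strand.
Il4ra: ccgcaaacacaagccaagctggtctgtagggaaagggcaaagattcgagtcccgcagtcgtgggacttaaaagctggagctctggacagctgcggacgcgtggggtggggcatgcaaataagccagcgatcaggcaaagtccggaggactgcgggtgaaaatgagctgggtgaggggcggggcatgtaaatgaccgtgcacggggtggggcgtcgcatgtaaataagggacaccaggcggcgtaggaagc
Il13ra2: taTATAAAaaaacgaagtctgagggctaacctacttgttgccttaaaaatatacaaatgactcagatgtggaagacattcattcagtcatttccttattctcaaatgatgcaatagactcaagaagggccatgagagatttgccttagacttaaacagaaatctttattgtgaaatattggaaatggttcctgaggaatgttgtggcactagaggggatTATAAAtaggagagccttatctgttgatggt
Socs3: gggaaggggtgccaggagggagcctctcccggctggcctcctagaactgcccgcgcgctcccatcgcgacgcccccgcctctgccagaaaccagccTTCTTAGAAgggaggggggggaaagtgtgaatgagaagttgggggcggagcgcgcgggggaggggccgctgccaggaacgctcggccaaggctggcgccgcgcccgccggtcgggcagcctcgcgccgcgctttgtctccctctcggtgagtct
Il13ra1: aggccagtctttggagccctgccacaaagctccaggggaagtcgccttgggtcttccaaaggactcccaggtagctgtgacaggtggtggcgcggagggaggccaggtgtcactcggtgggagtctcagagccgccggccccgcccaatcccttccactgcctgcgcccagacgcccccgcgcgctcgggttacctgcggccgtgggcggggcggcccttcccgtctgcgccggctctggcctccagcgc
The first motif was in 0 of the 10 member windows and in 5.85% of 32851 windows of that length. The second, in 7.02% of all windows, was in 1 of the 10, Socs3, where TTCTTAGAA begins 154 bases before the start. TATAAA, in 12.4% of all windows, was in those of Il13ra2 and Il13. In Il13ra2 one match begins 31 bases and another 248 bases before the start. The Il13ra2 window has 36.0% G and C, while those of Il4ra, Il13ra1 and Socs3 have 59.6%, 70.8% and 71.6%, against a median of 52.4% over all windows. These matches describe the letters of these windows alone. In the 4 windows shown the matches do not overlap.

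Il13 encodes the ligand, which the transgene supplies. Its probe set, 1420802_at, had ratios of 0.305, 0.877 and 0.678 in Dox, against 1.15 and 0.853 in NoDox. The groups overlap, since Dox replicate 2 lies between the NoDox arrays. The log2 fold change of Il13 was -0.81 ± 0.87 (SE, adjusted p = 0.744, limma). The signal level of this probe set, recovered from the ratios as described with the processing, was 309 steps, below the 25th percentile of all recovered levels (949 steps). The labels do not say whether the transgene transcript carries the bases this probe set targets, so the value is no check of induction.

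Il4ra, the chain that binds IL-4 and completes the IL-13 receptor, was 4.33-fold higher in Dox by probe set 1421034_a_at. Its ratios were 4.55, 3.59 and 4.52 in Dox, against 1.25 and 0.753 in NoDox. The groups do not overlap, and the lowest Dox array exceeds the higher NoDox array. The log2 fold change was 2.11 ± 0.24 (SE, adjusted p = 0.00994, limma). A second Il4ra probe set, 1423996_a_at, had ratios of 12.2, 14.6 and 11.3 in Dox, against 1.68 and 0.319 in NoDox. The Dox arrays lie close together, while the NoDox arrays differ 5.26-fold from each other. Both NoDox signals, 856 and 163 steps, lie below 949 steps, the 25th percentile of all recovered levels. Its log2 fold change was 4.11 ± 0.62 (SE, adjusted p = 0.0300, limma). With a constant of 949 steps added to every recovered signal it was 2.38 (adjusted p = 0.00368, limma). It was 5.30 without NoDox replicate 1, 2.91 without NoDox replicate 2 and 2.93 with quantile normalization, so the size of this difference is poorly fixed. Of the fits lacking 1 array, that without NoDox replicate 1 kept the call (adjusted p = 0.0170), and those without Dox replicates 1, 2 or 3 or NoDox replicate 2 lost it (0.0806, 0.0550, 0.105 and 0.126, limma). The third, 1447858_x_at, had ratios of 10.4, 7.46 and 2.87 in Dox, against 0.628 and 1.37 in NoDox. It did not pass the threshold (log2 fold change 2.71 ± 0.82, SE, adjusted p = 0.204, limma), its Dox arrays spread 3.64-fold, and its level of 944 steps is also below the 25th percentile. The ending _x_at marks a probe set with probes that may match other transcripts, and _a_at one whose probes match several transcripts of 1 gene. The 3 Il4ra probe sets have the same direction. Whether they differ in size was not tested. Without NoDox replicate 2, 0 Il4ra probe sets were past the threshold (log2 fold change 1.75 and adjusted p = 0.131 for 1421034_a_at, limma). The call of 1421034_a_at held without each of the other 4 arrays (adjusted p from 0.0130 to 0.0490, limma).

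Il13ra2, the decoy chain, was 5.29-fold higher in Dox. Its single probe set, 1422177_at, had ratios of 4.70, 3.80 and 6.91 in Dox, against 0.659 and 1.34 in NoDox. The groups do not overlap, Dox replicate 3 is the highest, and the NoDox arrays differ 2.04-fold. The log2 fold change of Il13ra2 was 2.40 ± 0.35 (SE, adjusted p = 0.0278, limma). Leaving out Dox replicate 2 kept the call (adjusted p = 0.0277, limma). The call was lost without Dox replicate 1 (0.0764), Dox replicate 3 (0.0865), NoDox replicate 1 (0.313) or NoDox replicate 2 (0.0930), with log2 fold changes from 1.89 to 2.92.

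Il13ra1, the chain that first binds IL-13 and signals with IL-4Rα, had 5 probe sets and none passed the threshold in limma (1 at unadjusted p under 0.05). The probe set with the largest difference, 1427164_at, had ratios of 2.26, 1.58 and 1.56 in Dox, against 1.18 and 0.824 in NoDox. The groups do not overlap, and the log2 fold change was 0.85 ± 0.22 (SE, adjusted p = 0.145, limma). Probe sets 1427165_at, 1451775_s_at and 1454783_at had log2 fold changes of 0.47, 0.41 and 0.40 (adjusted p = 0.408, 0.497 and 0.522, limma). In all 4 of these Dox replicate 1 was the highest array, with ratios of 2.26, 1.91, 1.83 and 1.87. The groups do not overlap in 1427165_at and 1451775_s_at either. The fifth, 1425625_at, went the other way, with ratios of 0.645, 1.26 and 0.773 in Dox, against 0.824 and 1.18 in NoDox (log2 fold change -0.20 ± 0.47, SE, adjusted p = 0.894, limma). Its sign turned when Dox replicate 1 (0.0026) or NoDox replicate 2 (0.055) was dropped, and its difference is smaller than its error. Il13ra2 and Il13ra1 were not tested against each other.

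**Figure D2:**
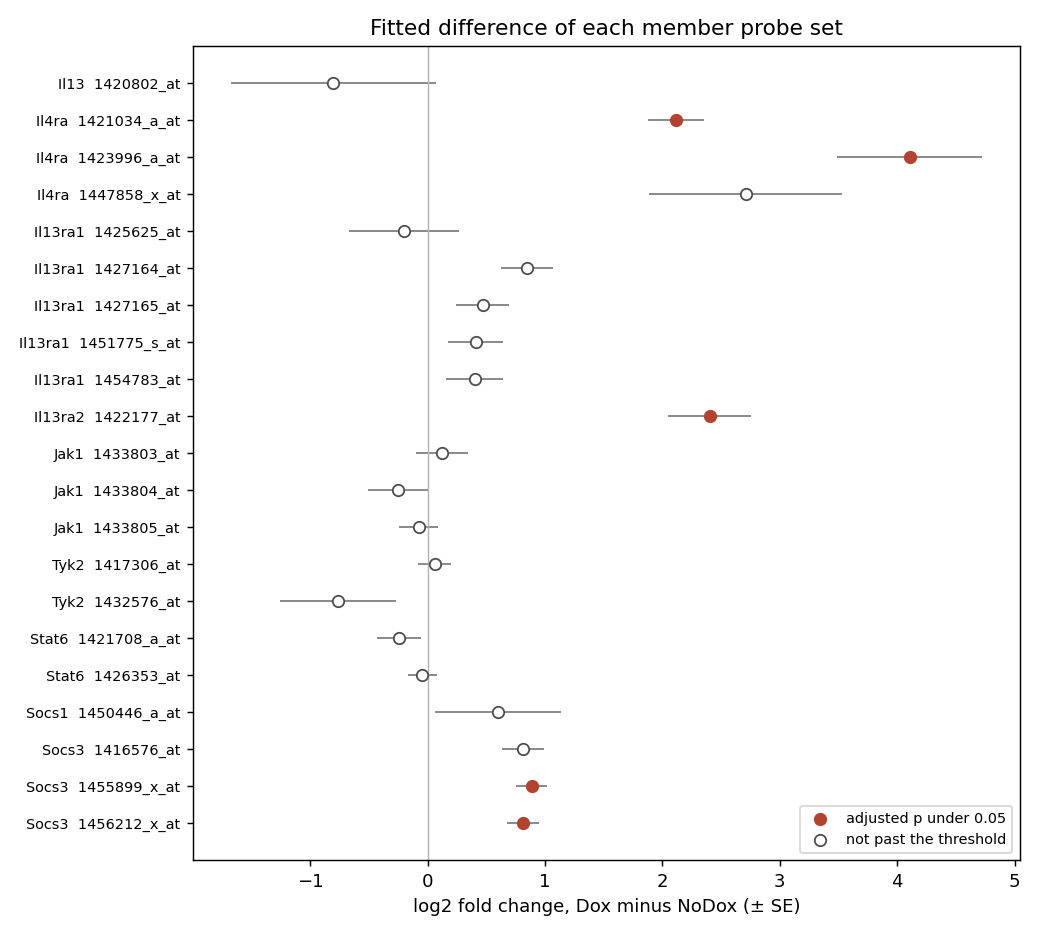
Log2 fold change, Dox minus NoDox, of each member probe set with its SE (bars) from limma on 3 Dox and 2 NoDox arrays. Filled points passed an adjusted p of 0.05, and these are 2 of 3 Il4ra, 1 of 1 Il13ra2 and 2 of 3 Socs3 probe sets.

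The kinases and STAT6 had 0 of 7 probe sets past the threshold in limma, and 0 at an unadjusted p under 0.05. Their log2 fold changes ran from -0.76 to 0.12, and in 0 of the 7 did all Dox arrays lie above both NoDox arrays. For Stat6, probe set 1426353_at had ratios of 0.952, 1.01 and 0.946 in Dox, against 1.02 and 0.985 in NoDox, so the arrays of both groups lie within a narrow band. Its log2 fold change was -0.05 ± 0.12 (SE, adjusted p = 0.909, limma), and the sign turned with median centring (0.036) and with quantile normalization (0.025). The other Stat6 probe set, 1421708_a_at, had ratios of 0.795, 1.06 and 0.711 in Dox, against 1.03 and 0.971 in NoDox (log2 fold change -0.25 ± 0.19, SE, adjusted p = 0.620, limma). Dox replicate 2 was the highest of the 5 arrays there and the other Dox arrays the lowest.

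Tyk2, the kinase bound to IL-13Rα1, had ratios of 1.06, 1.07 and 1.001 in Dox, against 0.994 and 1.01 in NoDox, by probe set 1417306_at (log2 fold change 0.06 ± 0.14, SE, adjusted p = 0.897, limma). Its second probe set, 1432576_at, had 0.327, 0.859 and 0.655 in Dox, against 0.743 and 1.26 in NoDox (log2 fold change -0.76 ± 0.49, SE, adjusted p = 0.551, limma). Jak1, bound to IL-4Rα, had log2 fold changes of 0.12, -0.25 and -0.08 in its 3 probe sets (adjusted p from 0.732 to 0.888, limma). Dox replicate 2 was the lowest of the 5 arrays in 1433803_at (0.800) and 1433805_at (0.785) and the highest in 1433804_at (1.11). Probe sets 1433803_at and 1433805_at thus order the Dox arrays alike, and 1433804_at orders them differently.

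Socs3, a feedback inhibitor, rose in 2 of its 3 probe sets, with the smallest folds of the 5 called. Whether its fold differs from those of the receptors was not tested. Both called Socs3 probe sets have the ending _x_at, so their probes may match other transcripts, and only 1416576_at lacks it. Probe set 1455899_x_at had ratios of 1.82, 1.73 and 2.00 in Dox, against 1.002 and 0.998 in NoDox. The groups do not overlap and the NoDox arrays are nearly equal. The log2 fold change was 0.89 ± 0.13 (SE, adjusted p = 0.0293, limma), which is 1.85-fold. Probe set 1456212_x_at had ratios of 1.77, 1.60 and 1.91 in Dox, against 0.997 and 1.003 in NoDox (log2 fold change 0.81 ± 0.14, SE, adjusted p = 0.0425, limma). Probe set 1416576_at had 1.70, 1.71 and 1.78 in Dox, against 0.822 and 1.18 in NoDox. It had the same log2 fold change of 0.81, with a wider error of 0.18, and did not pass (adjusted p = 0.0975, limma). It was the closest to the threshold of those not past it, and 1456212_x_at the closest of those past it. When single arrays were dropped, both called Socs3 probe sets stayed past the threshold in 1 of 5 fits, the one lacking Dox replicate 2 (adjusted p = 0.0227 and 0.0265, limma). In the other 4, which lack Dox replicate 1, Dox replicate 3, NoDox replicate 1 or NoDox replicate 2, the adjusted p of 1455899_x_at ran from 0.0731 to 0.316 and that of 1456212_x_at from 0.0912 to 0.373.

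Socs1, the other inhibitor, had ratios of 2.24, 0.882 and 1.73 in Dox, against 1.09 and 0.912 in NoDox. Dox replicate 2 lies below both NoDox arrays, so the groups overlap. The log2 fold change was 0.60 ± 0.54 (SE, adjusted p = 0.687, limma).

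**Figure D3:**
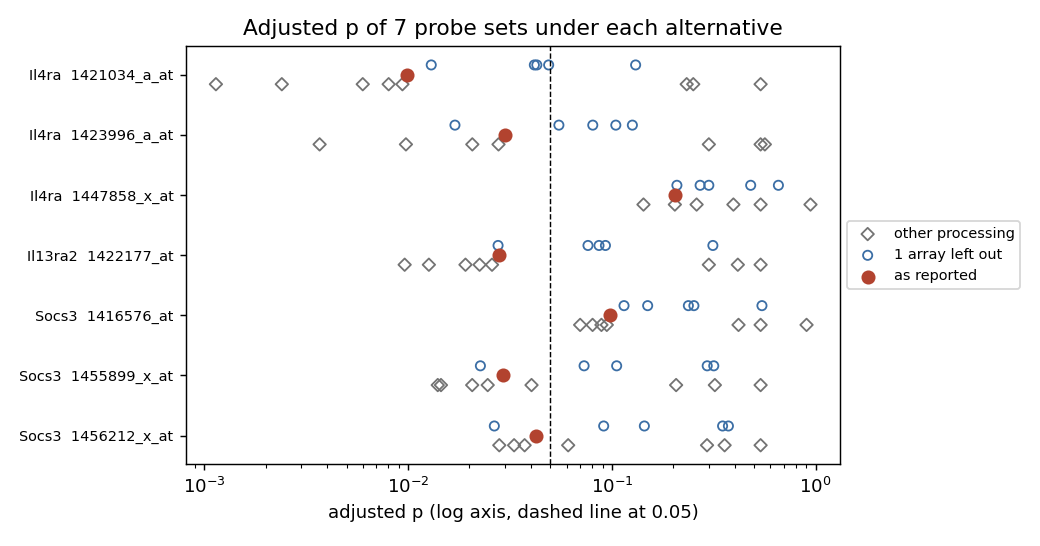
Adjusted p (log axis) of the 7 probe sets of Il4ra, Il13ra2 and Socs3 as reported (filled), with 1 array left out (circles) and under the other processing alternatives (diamonds). The dashed line is 0.05, and each of the 5 called probe sets has alternatives on both sides of it.

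The calls rest on a model of the spread that follows signal level. Without that trend limma called 0 member probe sets, at adjusted p of 0.233 or more for the 5, and 6 probe sets in all (4514 at unadjusted p under 0.05, against 6268 as reported). With quantile normalization it called 0 members and 58 higher and 14 lower probe sets (8 members at unadjusted p under 0.05). Of single arrays, dropping NoDox replicate 2 left 0 member probe sets called in limma (7 at unadjusted p under 0.05), dropping Dox replicate 1 or Dox replicate 3 left 1, dropping NoDox replicate 1 left 2 and dropping Dox replicate 2 left 4.

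Other genes of the pathway were read from lists of Janus kinases and STATs, inhibitors, ligands and adaptors, and receptors that pair with the common gamma chain, with the probe set of highest level for each gene. Of 38 genes 37 had a named probe set, and limma called 0 higher and 0 lower at the same threshold. Of all 18193 genes it called 0.929% higher and 0.544% lower, so 0 of 37 is near those shares. At unadjusted p under 0.05 in limma were 6 of the 37, and 6268 of all 45037 probe sets. The median log2 fold change of the 37 genes was 0.03, against -0.08 over all genes, and 22 of 37 were above 0. Among the kinases, Jak3, which binds the common gamma chain, had ratios of 2.37, 2.26 and 1.79 in Dox, against 1.16 and 0.840 in NoDox (log2 fold change 1.11 ± 0.26, SE, adjusted p = 0.121, limma). Stat3, the STAT best known for inducing Socs3, had a log2 fold change of 0.35 ± 0.13 (adjusted p = 0.280). Stat4, a STAT of lymphocytes, had 2.28, 1.70 and 20.2 in Dox, against 1.07 and 0.931 in NoDox, so 1 Dox array stands far from the others. Of the 15 inhibitors Cish and Socs2, further members of the SOCS family, had log2 fold changes of 0.01 and -0.01. The leukocyte phosphatase gene Ptpn6 had 1.87, 1.74 and 4.32 in Dox, against 1.01 and 0.995 in NoDox (log2 fold change 1.27 ± 0.36, SE, adjusted p = 0.168, limma). Il4 was at 0.94 ± 0.61 (adjusted p = 0.556) and Parp14, a cofactor of STAT6, at 0.70 ± 0.17 (adjusted p = 0.129). The receptor gene Il7r was at 1.60 ± 0.36 (adjusted p = 0.0991).

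Genes known as STAT6 targets in mouse were read beside the pathway. Over all 18193 genes 0.929% were called higher and 0.544% lower. Of the 16 targets, limma called 4 higher and 0 lower, Alox15 (log2 fold change 6.27), Chil3 (5.57), Ccl11 (1.94) and Retnla (1.13). The median of the 16 was 1.01. Ccl22, a chemokine for T helper cells, had ratios of 7.13, 12.0 and 9.86 in Dox, against 1.78 and 0.216 in NoDox, and did not pass the threshold (adjusted p = 0.0655). Arg1, a marker of IL-4-activated macrophages, was at -0.16. Its probe set lay at the 99.7 percentile of signal level, and which cells give that signal was not tested. This list, too, was written with earlier results of these arrays known.

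Most listed markers of leukocytes and of lung epithelium were also higher on average in the Dox arrays. Over all 18193 genes, 2475 had the Dox arrays above both NoDox arrays, and 169 were higher past the threshold. All 10 pan-leukocyte genes had the Dox arrays above both NoDox arrays, and Laptm5 and Itgb2 were past the threshold. Their summed ratio was 19.9 to 45.6 in Dox, against 9.44 to 10.6 in NoDox, highest in Dox replicate 3. All 10 macrophage genes did so too, with Cd68, Csf1r, Tyrobp and Mpeg1 past the threshold and a summed ratio of 18.1 to 22.5 in Dox, against 9.70 to 10.3 in NoDox. Of 8 lymphocyte genes 0 were past it in limma (3 at unadjusted p under 0.05), and 3 had the Dox arrays above both NoDox arrays. Of their log2 fold changes 7 were above 0, and that of Cd3g was -0.60. The lymphocyte sum was 13.7, 11.8 and 76.1 in Dox replicates 1, 2 and 3, against 9.65 and 6.35 in NoDox. Of 8 lung epithelium genes 5 were past it, with sums of 33.8, 23.8 and 62.4 in Dox, against 8.35 and 7.65 in NoDox. Those past it were Sftpa1, Sftpc, Sftpd, Napsa and Ager. Sftpb and Scgb1a1 did not pass (log2 fold changes 0.94 and 0.79). Scgb3a2 did not pass either, with ratios of 0.956, 0.793 and 2.92 in Dox, against 0.980 and 1.02 in NoDox. The pan-leukocyte, lymphocyte and lung epithelium sums, Il13ra2 and both called Socs3 probe sets were all highest in Dox replicate 3 and lowest in Dox replicate 2, while the macrophage sum (22.5, 18.1 and 20.6 in Dox replicates 1, 2 and 3) and Il4ra by 1421034_a_at were highest in Dox replicate 1 and lowest in Dox replicate 2. The macrophage median had another order, with log2 ratios of 0.98, 0.86 and 0.84 in Dox replicates 1, 2 and 3. For 1421034_a_at the ratios in Dox replicates 1 and 3 were nearly equal (4.55 and 4.52). The other Il4ra probe sets and 1416576_at of Socs3 had other orders. These orders of 3 arrays were not tested and do not tie a gene to a cell type. Macrophages, lymphocytes and airway epithelium also express Il4ra, and the part of any of these cells in the rise of Il4ra, Il13ra2 or Socs3 was not tested. In bulk tissue more cells of a type and more RNA per cell cannot be told apart. No listed marker had a ratio at the floor of 0.01.

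**Figure D4:**
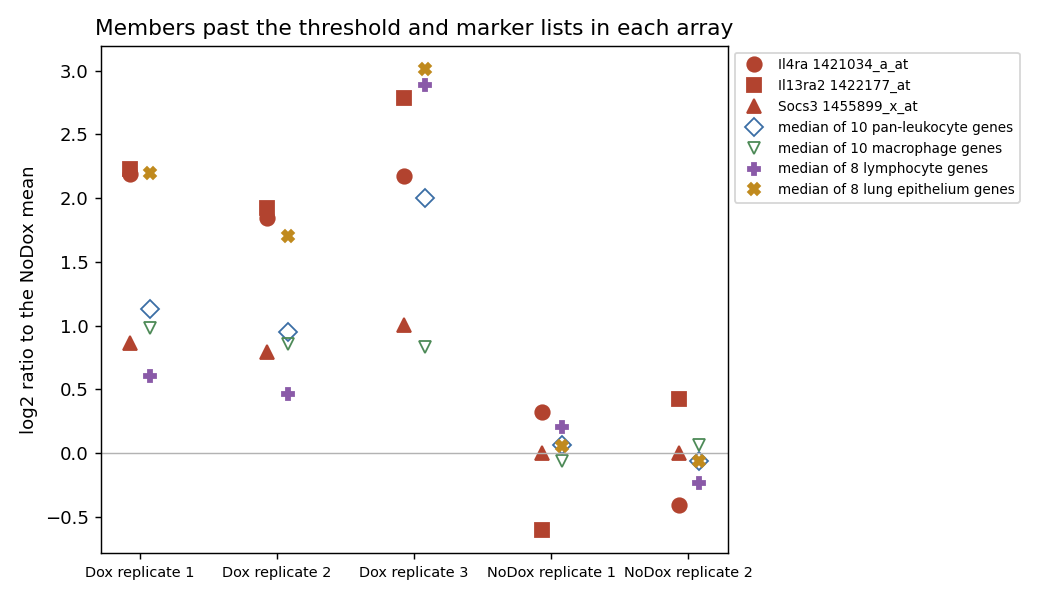
Log2 ratio to the NoDox mean (vertical axis) in each array for 1 probe set each of Il4ra, Il13ra2 and Socs3 (filled red) and for the median of each marker list. The lymphocyte median is 2.89 in Dox replicate 3, against 0.60 and 0.46 in Dox replicates 1 and 2, while the Socs3 ratios of 1.73 to 2.00 in Dox put its 3 points close together.

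Squamous genes of the esophagus were read too, 9 with a named probe set, among them Krt4, Krt13 and Krt5. None had a ratio at the floor, where only 6 values of all probe sets lie, and 0 passed the threshold in limma (3 at unadjusted p under 0.05). Of all 18193 genes, 169 were higher and 99 lower past it. The 3 went different ways, Krt14 up (log2 fold change 0.48) and Krt15 and Trp63 down (-0.41 and -0.34). In 4 of the 9 the Dox arrays lay below both NoDox arrays, and in 2 above both. Among all 18193 genes these orders held in 4062 and 2475. Signal levels of the 9 squamous genes lay at or above the 87.9 percentile of all probe sets. Those of the 8 lung epithelium genes lay between the 74.5 and 84.5 percentiles. Levels of different probe sets are not comparable, and each gene was read from its probe set of highest level. These values therefore neither rank the tissues nor check the labelled one. Of 10 skeletal muscle genes, a muscle that the mouse esophagus wall contains, Myh4 and Pvalb fell past the threshold (log2 fold changes -3.06 and -1.53). Over all 18193 genes 0.544% were called lower. The other 8 muscle genes did not pass. Among them Myh2 was at -2.29, while Acta1, Ckm, Myh1 and Myl1 lay between -0.15 and -0.07. The median of the 10 was -0.20.

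Genes with the most similar pattern were found by the Euclidean distance between log2 ratios over the 5 arrays, which share the NoDox mean as divisor. Nearest to Il4ra (1421034_a_at) were Klrd1, at a distance of 0.41, Scml4 (0.48) and 4930512B01Rik (0.52). Klrd1, a natural killer cell receptor gene, had ratios of 3.73, 3.66 and 3.70 in Dox, against 1.27 and 0.734 in NoDox. Nearest to Il13ra2 were Olr1 (0.29), Dmwd (0.37) and Scube3 (0.42). Olr1, a scavenger receptor gene, had 4.04, 3.49 and 7.22 in Dox, against 0.608 and 1.39 in NoDox. Nearest to Socs3 (1455899_x_at) were Pbx3 (0.11), Plekho1 (0.12) and Sec61a1 (0.12). Sec61a1, of the protein channel of the endoplasmic reticulum, had 1.79, 1.77 and 1.88 in Dox, against 0.968 and 1.03 in NoDox.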

How the data were processed

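Esophageal RNA was isolated with Trizol, given biotin labels from a random primer and read on Affymetrix Mouse Genome 430 2.0 arrays, per the labels' protocols. Per the labels, the authors used MAS 5.0 for signals and GeneSpring 7.3.1 for normalization to unstimulated controls. The deposited values are a ratio per probe set and array, made by the authors. In 45099 of 45101 probe sets the 2 NoDox ratios sum to 2 within 0.0001, so the divisor is the NoDox mean. The number of arrays limits the precision.

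Ratios carry no signal level. It was recovered as the smallest whole step numbers, up to 50000, that give the 5 ratios within 3e-07 after 1 scaling factor per array was found from the commonest ratios between arrays (88.8% of probe sets, and 0.1% of 4000 with shuffled ratios). Of 5000 simulated probe sets 5000 were recovered and 96.5% were exact. More were recovered there than in the data, so this share does not give the accuracy of the real levels. Probe sets of the data that were not recovered received a lower bound. Members recovered were 18 of 21. Those with a bound, also used in the trend, are 1426353_at of Stat6, 1433805_at of Jak1 and 1455899_x_at of Socs3. The constant of 949 steps was not added to these.

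Log2 ratios of the 45037 probe sets that are no control were tested two-sided with limma 3.58.1 in R 4.3.3 (lmFit, eBayes with a trend on level), with 3 residual and 5.14 prior degrees of freedom and no filter. Of 200 simulated probe sets changed among 45037, 40 were called at 2-fold, 104 at 4-fold and 136 at 8-fold, with 5, 12 and 10 false calls. With 3 and 2 arrays the smallest exact permutation p is 0.1, so no single value was tested that way. The annotation gives 1 gene symbol to 34945 probe sets, several to 932 and none to 9160. Named genes are the 10 members, genes of fixed lists, and the 3 genes nearest each called member. Listed genes given with values although not past the threshold were picked with those values in view. The members and lists were chosen with earlier results of these data known. Alternatives covered scaling, offset, level filter, trend, probe set choice, replicate number and single arrays. Python 3.11.15, numpy 2.4.6, pandas 2.3.3 and matplotlib 3.10.9 were used.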

Additional observations from a re-analysis of the deposited data

How the results depend on the processing

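The count of member probe sets higher in Dox was 5 as reported. It was 0 with quantile normalization, 0 with no intensity trend and 0 with the trend on the mean log2 ratio, and 3 with 1 probe set per gene, where fewer probe sets were tested. With 1 array left out it was 0 to 4. The count lower in Dox was 0 in every alternative run. Over all probe sets, 243 were higher and 172 lower as reported. The counts were 58 and 14 with quantile normalization, 6 and 0 with no trend, and 0 and 0 with the trend on the mean log2 ratio (4136 at unadjusted p under 0.05, and 8 of 21 members). With median centring 113 were lower (273 higher), with the larger offset 311 (320 higher), and with 1 array left out 36 to 315 were higher and 5 to 391 lower. The mean log2 ratio follows the fold change itself, since each ratio is to the NoDox mean. The cause of the differences in these counts was not tested. A fit that leaves NoDox with 1 array assumes that it varies like the Dox arrays. The replicate block, for numbers that the labels do not tie to a shared litter or day, and whose same-numbered arrays did not vary together (r = 0.01 and 0.02 across probe sets), gave 331 higher and 275 lower probe sets. Among the members it called 1427164_at of Il13ra1 (log2 fold change 0.94, adjusted p = 0.0270, limma) and not 1456212_x_at of Socs3 (adjusted p = 0.0611, limma), so the member count was again 5. Signs that turned were those of differences within their error, for Il13ra1 (1425625_at) in the fits lacking Dox replicate 1 (0.0026) or NoDox replicate 2 (0.055, and down to -0.48 without Dox replicate 2), and for Stat6 (1426353_at) with median centring (0.036) and quantile normalization (0.025). Those of Jak1 turned too, in 1433803_at without Dox replicate 1 (-0.042, with 0.34 when Dox replicate 2 was dropped), and in 1433805_at with median centring (0.0065), with quantile normalization (0.0092) and when Dox replicate 2 was dropped (0.059, the lowest such value being -0.19). Signal level limits Il13 and 1447858_x_at of Il4ra, whose mean level is below the 25th percentile, and 1423996_a_at of Il4ra, whose NoDox signals are. Their log2 fold changes shrank to -0.18, 0.99 and 2.38 with the larger offset.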
